A study of Mus musculus with 12 samples.

Results

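The complement system was followed through 9 of its genes: C1qa, C1qb, C1qc, C1ra, C3, C4b, Serping1, C3ar1 and C5ar1. They were chosen by name, with earlier results of these data known. Each symbol matched a single row of the deposited table of 36131 genes. RNA-seq was done on whole retinas of 12 C57BL/6J wildtype mice at P18, 4 per group, in the model of oxygen-induced retinopathy (OIR). RA-PBS mice stayed in room air and received PBS. O2-PBS mice were kept in 75% O2 from P7 to P12, were then returned to room air, and received the same placebo. O2-IC100 mice had the same hyperoxia and received IC100, a humanized monoclonal antibody against the inflammasome adaptor ASC, at 10 µg/g. The injections are taken here as intraperitoneal, at P12, P14 and P16 in all groups. The text of the study, however, describes its placebo PBS as given by intravitreal injection, so a shared route is not certain. The groups share the strain, the age and the injection days. No group was given IC100 in room air, so the antibody can only be read on top of hyperoxia. Each library is a homogenate of retinal tissue, and in such bulk RNA fewer cells of a type and less RNA per cell cannot be told apart.

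Complement is a cascade of proteins that tags particles and cells for removal. C1q, built from the products of C1qa, C1qb and C1qc, recognizes the target, and its partner protease C1r starts the classical pathway, which cleaves C4 and then C3. C1 inhibitor, made from Serping1, blocks the C1 proteases, while C3ar1 and C5ar1 encode the receptors for the small fragments C3a and C5a. In the retina and brain, C1q is made chiefly by microglia, and C1q and C3 mark synapses for removal by these cells.

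O2-IC100 animal 10 stood apart from the other libraries. Crystallins and other lens genes held 58.1% of its counts, against 0.00126% to 4.44% in the other 11 libraries, and rod genes held 0.328% against 3.91% to 4.87%. With so few retinal transcripts in the library, TMM scaling set its factor to 0.3244 (others 1.069 to 1.149), which raises all its scaled values. C1qa was 46.1 normalized CPM (CPM of the TMM-scaled library) in animal 10 but 14.9 CPM without that scaling, where animals 9, 11 and 12 had 15.6, 17.5 and 17.4. The counts of called genes below are therefore given with all 12 animals and without animal 10. Correlations and the values of other complement genes and markers leave animal 10 out unless it is named. Total counts per library were 14907143 to 24438082, and the 9 genes together took 0.00211% to 0.0123% of them. The sexes were uneven by Y-linked RNA, which was high in 3 of 4 RA-PBS, 1 of 4 O2-PBS and 3 of 4 O2-IC100 animals, the low O2-IC100 animal being animal 10.

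The DNA before the start sites is shown for 3 members: C1qb and C1qc, whose levels varied closely together below, and C3, which followed them less closely. RefSeq (GRCm38.p6) held such a sequence for 6 of the 9 genes, and C1qa, C4b and Serping1 had no entry. C1qa, C1qb and C1qc lie side by side on chromosome 4 with 0 other genes of that annotation between them. The 250 bases before the start are chr4:136886201-136886450 on the minus strand for C1qb, chr4:136892915-136893164 on the minus strand for C1qc and chr17:57228137-57228386 on the minus strand for C3. Capitals mark the core GAGGAA of PU.1, a factor of myeloid cells, on either strand, or TTGCNNAA, a form bound by C/EBP factors.
C1qb: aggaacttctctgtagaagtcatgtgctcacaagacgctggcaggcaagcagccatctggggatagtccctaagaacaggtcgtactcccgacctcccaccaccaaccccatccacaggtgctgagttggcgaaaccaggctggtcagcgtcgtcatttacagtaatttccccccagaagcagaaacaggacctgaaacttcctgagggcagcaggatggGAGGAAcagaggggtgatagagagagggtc
C1qc: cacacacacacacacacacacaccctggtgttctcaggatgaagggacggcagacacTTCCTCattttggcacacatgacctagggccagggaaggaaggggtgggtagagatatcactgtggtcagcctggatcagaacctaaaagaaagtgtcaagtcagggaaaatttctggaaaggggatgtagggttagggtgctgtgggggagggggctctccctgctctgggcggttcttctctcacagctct
C3: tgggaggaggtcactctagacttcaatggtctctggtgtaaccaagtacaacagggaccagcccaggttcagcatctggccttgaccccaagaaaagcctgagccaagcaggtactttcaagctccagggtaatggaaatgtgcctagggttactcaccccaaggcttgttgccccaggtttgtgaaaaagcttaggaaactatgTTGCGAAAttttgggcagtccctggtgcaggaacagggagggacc
GAGGAA lies 30 bases before the start in C1qb, and its complement TTCCTC 193 bases before it in C1qc. This core was found in 23.3% of 32851 mouse promoter windows of the same length, counting both strands. The C/EBP form lies 45 bases before the start of C3 and was found in 9.56% of the windows. TTCNNNGAA, bound by STAT factors (7.02% of windows), and the interferon-stimulated element (2.98%) were in none of the 6 windows. C1ra, C3ar1 and C5ar1 held none of the 4 motifs. These are matches of letters only.

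To ask what hyperoxia did to these genes, O2-PBS was compared with RA-PBS. All 9 had a higher mean in O2-PBS, by 1.88- to 3.57-fold. Without animal 10, 7 of them rose past the thresholds used throughout (fold change of at least 1.5, p-value under 0.05 and adjusted p-value under 0.1): C1qa, C1qb, C1ra, C3, Serping1, C3ar1 and C5ar1. Of all 16688 genes tested in that fit, 4.09% were called higher. With all 12 animals 0 of the 9 were called by edgeR's quasi-likelihood test, where 0.782% of all genes were called higher, and 8 had an unadjusted p-value under 0.05, as had 7.12% of all genes. The fold changes were nearly the same in both fits, since animal 10 belongs to neither group. With all 12 animals DESeq2 called 3 of the 9 (1.7% of all genes in either direction) and limma voom 1 (1.18%), and without animal 10 DESeq2 called 9 (4.65%). In 8 of the 9 the groups did not overlap, as in 7.8% of all genes in this direction without animal 10.

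Among the C1q chains, C1qa was 4.60, 2.71, 4.94 and 9.53 normalized CPM in RA-PBS and 10.9, 10.1, 13.2 and 9.81 in O2-PBS. The groups did not overlap, although RA-PBS animal 4 came close to the lowest O2-PBS retina. C1qa was 2.02-fold higher in O2-PBS (log2 fold change 1.01 ± 0.28 SE, adjusted p = 0.0381 by edgeR without animal 10, 0.67 with it). C1qb was 4.71, 2.46, 4.496 and 9.58 in RA-PBS and 10.9, 10.5, 14.8 and 11.0 in O2-PBS, a log2 fold change of 1.15 ± 0.30 (adjusted p = 0.035 by edgeR). C1qc was 2.97, 1.84, 5.16 and 9.58 in RA-PBS and 7.12, 9.54, 11.2 and 8.98 in O2-PBS. It was the only member whose groups overlapped, again through RA-PBS animal 4, and it did not pass (log2 fold change 0.91 ± 0.37, adjusted p = 0.167 by edgeR). In that animal the summed level of 16 microglial markers was 117 normalized CPM, against 63.8 to 85.0 in the other RA-PBS retinas and 107 to 131 in O2-PBS.

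C1ra, the protease of the C1 complex, was 1.12, 0.821, 1.55 and 0.895 normalized CPM in RA-PBS and 2.77, 2.61, 2.71 and 2.83 in O2-PBS. The O2-PBS retinas were close to each other and all above RA-PBS, a log2 fold change of 1.31 ± 0.25 (adjusted p = 0.006 by edgeR without animal 10). Of the 31-base words of its transcript, 59.6% also occur in other genes, mainly C1rb, so its count is uncertain. C1rb itself was given 2 counts in O2-IC100 animal 12 and 0 in every other library.

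C3, on which all complement pathways converge, was 1.91, 1.64, 2.44 and 2.21 normalized CPM in RA-PBS and 5.31, 3.70, 5.09 and 3.27 in O2-PBS. Again no O2-PBS retina fell to the RA-PBS range, with a log2 fold change of 1.08 ± 0.25 (adjusted p = 0.0166 by edgeR without animal 10). C4b, which encodes C4, was 5.05, 5.89, 30.3 and 12.0 in RA-PBS and 42.8, 31.1, 39.6 and 31.9 in O2-PBS. Its highest RA-PBS value, in animal 3, lay just under the lowest O2-PBS value, and with that spread its 2.74-fold difference was not called (log2 fold change 1.45 ± 0.49, adjusted p = 0.113 by edgeR without animal 10). RA-PBS animal 3 also had the highest lens share of its group, 4.44%. The C4b transcript shares 48.8% of its 31-base words with C4a, so its counts could hold reads of that copy. No row of the deposited table was found for C4a, so it has no count here to compare.

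Serping1 was 3.14, 2.99, 8.49 and 9.90 normalized CPM in RA-PBS and 15.5, 12.1, 17.5 and 12.8 in O2-PBS. RA-PBS split into a low pair and a higher pair, and all O2-PBS retinas were above both (log2 fold change 1.24 ± 0.33, adjusted p = 0.0351 by edgeR without animal 10). The receptor genes were low but had the largest fold changes. C3ar1 was 0.505, 0.918, 1.06 and 1.00 in RA-PBS and 2.65, 2.14, 3.39 and 2.27 in O2-PBS, a log2 fold change of 1.58 ± 0.30 (adjusted p = 0.00636 by edgeR without animal 10). C5ar1 rested on 6, 4, 3 and 8 counts in RA-PBS and 21, 17, 20 and 14 counts in O2-PBS. Its log2 fold change was 1.84 ± 0.46 (adjusted p = 0.0263 by edgeR without animal 10), on few counts in RA-PBS.

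**Figure D1:**
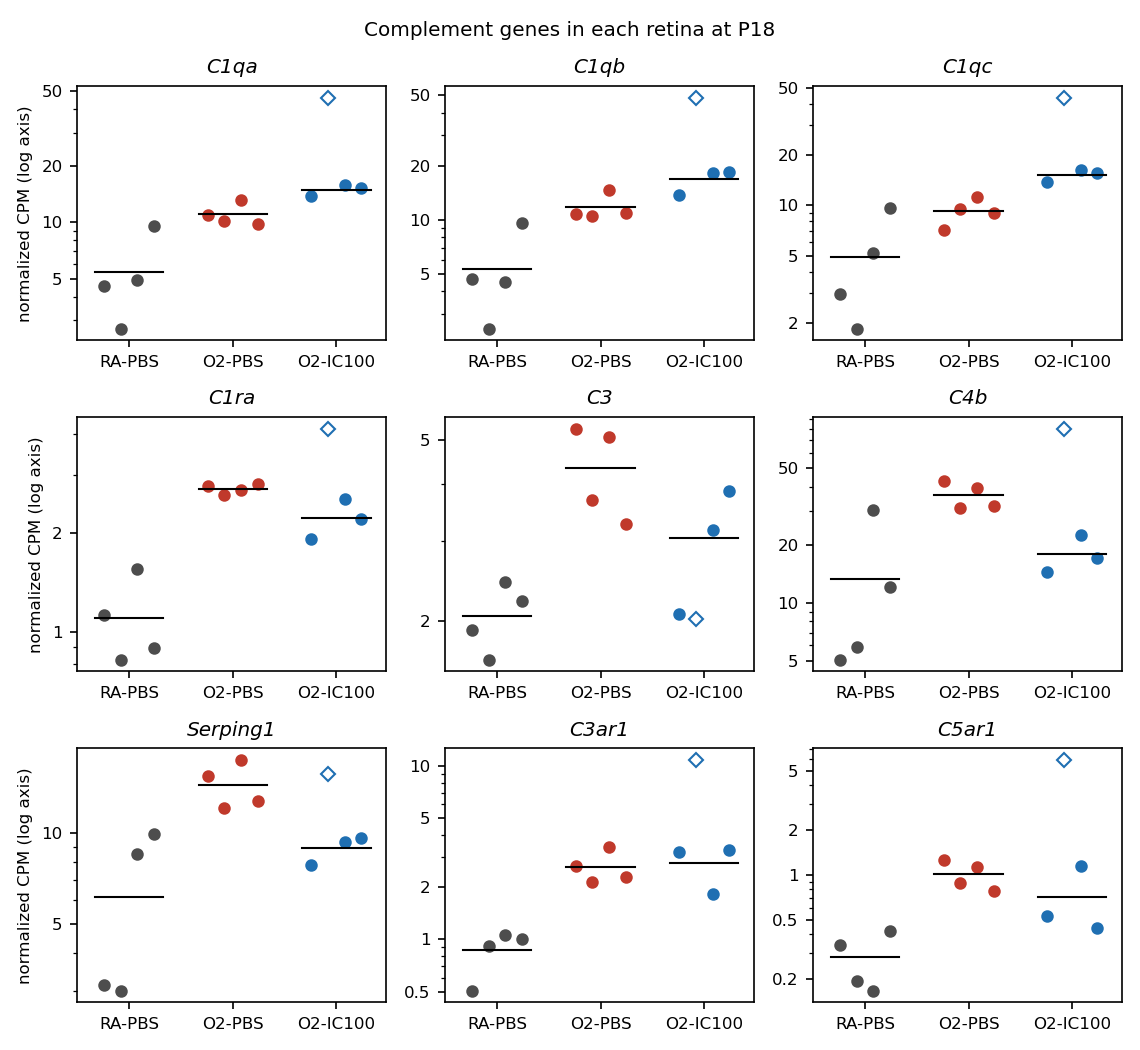
Each panel shows 1 gene, with normalized CPM on a log axis for each of the 12 retinas by group. Points are animals, the open diamond is O2-IC100 animal 10, and lines are group means without it. O2-PBS lies above RA-PBS without overlap in 8 of the 9 panels, and in O2-IC100 the C1q chains lie at or above O2-PBS while C4b and Serping1 lie below it apart from animal 10.

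To ask whether IC100 altered complement RNA after hyperoxia, O2-IC100 was compared with O2-PBS. 0 of the 9 genes passed in either fit. With 12 animals 4 had an unadjusted p-value under 0.05 (C1qa, C1qb, C1qc and C3), as had 16.9% of all genes, and without animal 10 0 did, against 19.2%. In the same comparison edgeR called 0.947% of all genes without animal 10 and 0% with it. DESeq2 also called 0 of the 9, with 12 animals (0.461% of all genes) and without animal 10 (1.56%), as did limma voom (0.0121%). The estimates did not all point the same way. Without animal 10 the C1q chains were 1.37- to 1.66-fold higher in O2-IC100, whereas C4b, Serping1 and C3 were 0.503, 0.625 and 0.71 times their O2-PBS level.

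C1qa was 13.8, 15.7 and 15.2 normalized CPM in O2-IC100 animals 9, 11 and 12, all above the O2-PBS maximum of 13.2 (log2 fold change 0.45, 95% interval -0.16 to 1.06). C1qc, at 13.7, 16.2 and 15.4, was likewise above all O2-PBS retinas (0.73, -0.10 to 1.55). C1qb, at 13.8, 18.4 and 18.6, overlapped O2-PBS through animal 9 (0.54, -0.13 to 1.21). With animal 10, whose scaled values were 46.1, 48.6 and 43.7, the log2 fold changes of C1qa, C1qb and C1qc were 1.03, 1.07 and 1.26.

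C4b was 14.5, 22.4 and 17.2 normalized CPM in O2-IC100 animals 9, 11 and 12, all below the O2-PBS minimum of 31.1, but 80.5 in animal 10 (log2 fold change -0.99, interval -2.18 to 0.19, without it and -0.12 with it). Serping1, at 7.83, 9.36 and 9.61 against at least 12.1 in O2-PBS, was also lower in all of these animals and was 15.7 in animal 10 (-0.68, -1.43 to 0.08, without it and -0.45 with it). C1ra, at 1.92, 2.54 and 2.21, lay just under O2-PBS and was 4.17 in animal 10, above all O2-PBS retinas (-0.28, -0.83 to 0.27, without it and -0.03 with it). C3 overlapped O2-PBS, at 2.08, 3.17 and 3.87, and was 2.02 in animal 10 (-0.49, -1.05 to 0.07, without it and -0.63 with it). Thus 2 members lay wholly above and 3 wholly below O2-PBS without animal 10, where 18% and 17.3% of all genes did so. With animal 10 the counts were 2 and 0, against 10.1% and 10.7% of all genes.

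For both receptors the groups overlapped. C3ar1 was 3.19, 1.82 and 3.29 normalized CPM in O2-IC100 animals 9, 11 and 12 and 10.9 in animal 10. Its log2 fold change was 0.10 without animal 10, with a 95% interval of -0.55 to 0.74, and 0.84 with it (-0.22 to 1.90). C5ar1 was 0.532, 1.15 and 0.441 in these animals and 5.93 in animal 10. The sign of its log2 fold change turned with animal 10, from 0.88 with it to -0.49 without it (-1.46 to 0.48).

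**Figure D2:**
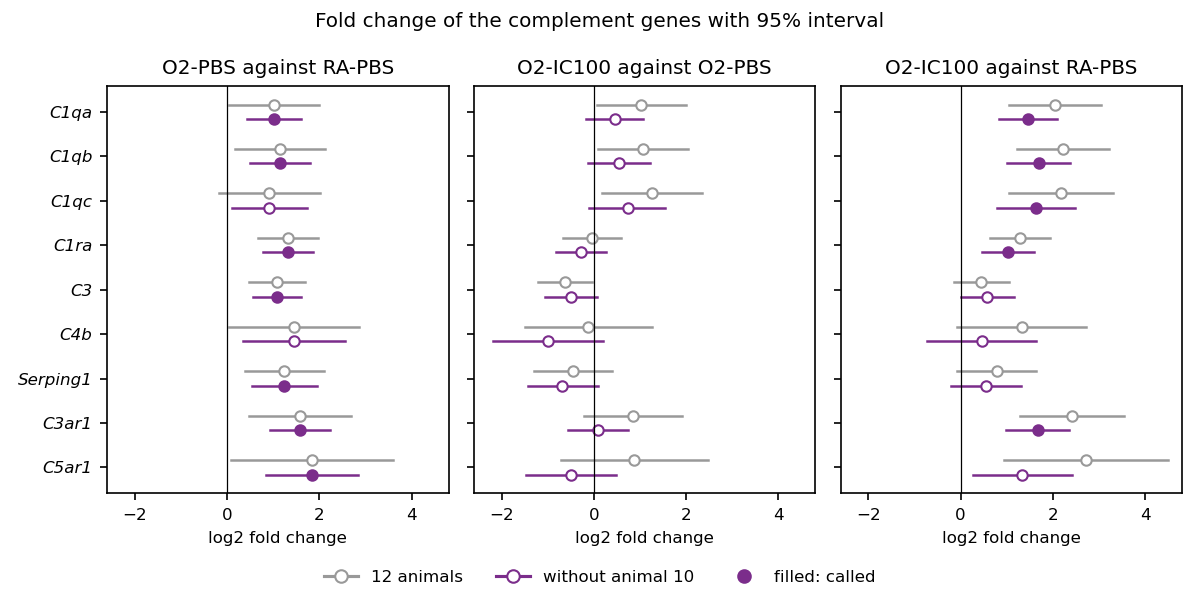
Log2 fold change with its 95% interval (edgeR) for the 9 genes in the 3 comparisons, with all 12 animals in grey and without animal 10 in purple. Filled points passed the thresholds: 7 genes in O2-PBS against RA-PBS and 5 in O2-IC100 against RA-PBS, all without animal 10, and none in O2-IC100 against O2-PBS, where intervals without animal 10 all include 0.

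Because scaling mattered for animal 10, the summed C1q counts were also divided by the count of each other member within the same library, where no scaling factor enters. The C1q chains gave 1.86, 2.5, 2.23 and 2.33 counts per Serping1 count in O2-PBS and 5.29, 8.84, 5.37 and 5.13 in O2-IC100. All 4 O2-IC100 retinas, animal 10 included, were above all O2-PBS and all RA-PBS retinas, the latter at 1.72 to 3.91. Per C4b count the ratio was 0.676 to 0.989 in O2-PBS and 1.72 to 2.87 in O2-IC100, again without overlap, while RA-PBS ranged from 0.482 to 2.43. Per C3 count it was 5.44 to 9.10 in O2-PBS and 12.7 to 68.5 in O2-IC100, and per C1ra count 10.4 to 14.4 and 19.8 to 33.2. Both upper ends in O2-IC100 were animal 10, which had 16 C3 counts. Animals 9, 11 and 12 spanned 12.7 to 19.9 per C3 count and 19.8 to 22.3 per C1ra count. RA-PBS overlapped O2-IC100 in both, at 4.26 to 13 per C3 count and 8.53 to 32.1 per C1ra count. For C3ar1 and C5ar1 the ratios of these groups overlapped. These ratios were formed after the values had been seen and are given without a test.

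**Figure D3:**
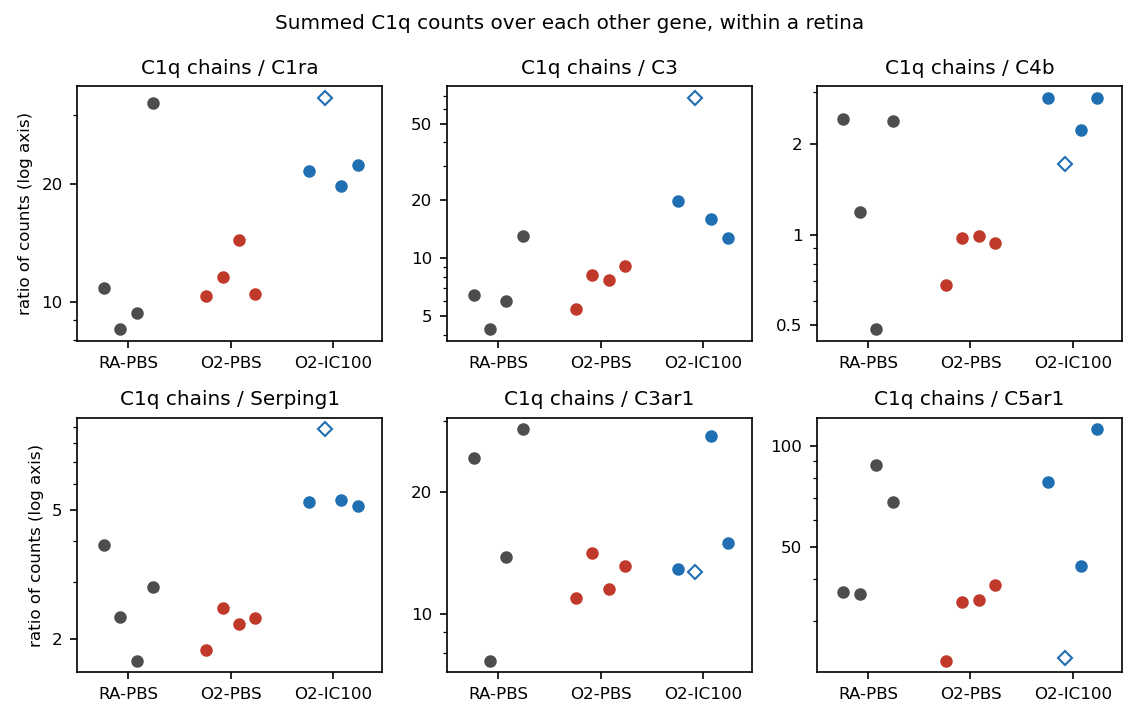
Ratio of the summed C1qa, C1qb and C1qc counts to the count of each of the other 6 genes in the same library, on a log axis, by group. Points are animals and the open diamond is O2-IC100 animal 10. For C1ra, C3, C4b and Serping1 all O2-IC100 points lie above all O2-PBS points, and for C3ar1 and C5ar1 they overlap.

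O2-IC100 was also set against RA-PBS, the retinas without hyperoxia or antibody. These comparisons share groups with those above and are not independent of them. Without animal 10, 5 of the 9 genes were higher in O2-IC100 and 0 lower, where 0.947% of all genes were called higher. C1qb was 3.23-fold higher (log2 fold change 1.69 ± 0.32, adjusted p = 0.0372 by edgeR), and C1qa and C1qc were 2.76- and 3.12-fold higher. C3ar1 was 3.19-fold higher (log2 fold change 1.67 ± 0.32, adjusted p = 0.0351 by edgeR), and C1ra was 2.05-fold higher. C3, C4b, Serping1 and C5ar1 did not pass, with log2 fold changes of 0.58, 0.46, 0.56 and 1.34 and edgeR adjusted p-values of 0.311, 0.719, 0.476 and 0.21. With 12 animals edgeR called 0 of the 9 and 0% of all genes, 6 of the 9 had an unadjusted p-value under 0.05 (13.2% of all genes), limma voom called 0 (0.0121%) and DESeq2 called 6 (1.15%). With animal 10 the log2 fold changes were 2.05, 2.22 and 2.18 for C1qa, C1qb and C1qc, 1.28 for C1ra, 0.45 for C3, 1.33 for C4b, 0.78 for Serping1, 2.42 for C3ar1 and 2.72 for C5ar1. The 5 calls rest on few animals: besides animal 10, leaving out animal 9 or animal 11 left 1 call, and leaving out animal 12 left 0. Calls fell across all genes too. The fits without animals 9, 11 and 12 called 59 of 16998, 23 of 16950 and 17 of 16927 genes higher, in that order. When only animal 10 was left out it was 158 of 16688.

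In order of level, the C1q chains ran RA-PBS, O2-PBS, O2-IC100, whereas C3, C4b, Serping1, C1ra and C5ar1 ran RA-PBS, O2-IC100, O2-PBS in mean without animal 10. C1qa averaged 5.44 ± 2.90 (SD, n = 4), 11.0 ± 1.52 (n = 4) and 14.9 ± 0.990 (n = 3) in the first order. C4b averaged 13.3 ± 11.8 in RA-PBS and 36.3 ± 5.74 in O2-PBS, and O2-IC100 animals 9, 11 and 12 lay within the RA-PBS range. Serping1 averaged 6.13 ± 3.59 in RA-PBS and 8.93 ± 0.966 in O2-IC100, again within the RA-PBS range. C3ar1 was 2.61 ± 0.563 in O2-PBS and 2.77 ± 0.818 in O2-IC100, against 0.869 ± 0.250 in RA-PBS. C1ra overlapped RA-PBS in neither hyperoxia group. Neighbours in these orders that involve O2-IC100 and O2-PBS were not separated by the test.

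Divided by transcript length, the C1q chains and Serping1 had the highest means of the 9. In O2-PBS the means were 10.6, 10.8 and 7.65 normalized CPM per kilobase for C1qa, C1qb and C1qc, 8.18 for Serping1 and 6.75 for C4b. C1ra, C3, C3ar1 and C5ar1 were lower, at 0.916, 0.845, 0.607 and 0.400. On this scale C1qb and C1qa did not differ beyond their SDs of 1.83 and 1.46. C1qc, with an SD of 1.4, likewise lay within the spread of Serping1 (SD 1.43) and C4b (SD 1.07). The mix of chains per length overlapped between the groups. C1qa made up 32.8% to 40.7% of C1q RNA, C1qb 31.4% to 38.6% and C1qc 22.0% to 32.6% over the 12 retinas, with animal 10 inside these ranges at 35.4%, 35.7% and 29.0%.

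Over the 11 animals without animal 10, which share the group differences and the scaling, the log2 CPM of the C1q chains were the most alike of all pairs of members. Pearson r was 0.995 for C1qa and C1qb, 0.972 for C1qa and C1qc and 0.965 for C1qb and C1qc, and 0.982, 0.935 and 0.912 after group means were subtracted. C4b and Serping1 came next at 0.927, and at 0.824 after group means were subtracted. On that second measure C1qc and Serping1 reached 0.879, and C1qa and C1qb with Serping1 0.814 and 0.756. C1qb and C4b reached 0.559 and, within groups, 0.333. C3 reached 0.662 with C1qb and 0.556 with C1qc, and within groups 0.496 and 0.371. Among 15033 other genes, those like C1qb included Calu (r = 0.960) and Lyz2 (0.958), a myeloid lysozyme. C1qa was most like Lyz2 (0.959) and C1qc most like Lsp1 (0.958), a leukocyte gene. C4b was like Rhbdf1 and Ccnd2 (both 0.956), and Serping1 was most like Tuba1c (0.967) and Anxa2 (0.957). C1ra was most like Ndufa4l2 (0.981) and the apelin receptor gene Aplnr (0.973). C3 was most like C1qtnf6 (0.937), and also like the myeloid factor gene Irf8 (0.926). C3ar1 was most like Trub1 (0.947) and C5ar1 most like H2-D1 (0.949), a class I histocompatibility gene. The r with these other genes were picked as among the highest of 15033. After group means were subtracted each was lower, from 0.734 for C3ar1 with Trub1 to 0.939 for C1qc with Lsp1.

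Most of the complement system beyond these genes was not called. Both lists were chosen with earlier results of these data known, so the difference in calls between them is not a test. Of 57 other complement genes in the table, 38 could be tested. Without animal 10, 4 of the 38 rose in O2-PBS over RA-PBS, all of them receptors, where 4.09% of all genes were called higher. The median log2 fold change was 0.08 over the list and -0.01 over all genes. The 4 receptors were Itgam (1.02 ± 0.17, adjusted p = 0.00324 by edgeR) and Itgb2 (1.62 ± 0.37), which form the C3 fragment receptor CR3, Itgax (2.24 ± 0.76), and Cd93 (2.04 ± 0.20, adjusted p = 9.53e-05 by edgeR), a surface protein of endothelium and myeloid cells once named a C1q receptor. Itgax rested on few counts, 0, 0, 5 and 6 in RA-PBS and 14, 13, 13 and 11 in O2-PBS. Cd93 was 14.5, 16.95, 26.5 and 13.95 normalized CPM in RA-PBS, 92.3, 62.7, 60.5 and 79.9 in O2-PBS, and 30.8, 39.1 and 39.1 in O2-IC100 animals 9, 11 and 12, with 11.4 in animal 10. O2-PBS did not overlap the other groups, whereas the 4 O2-IC100 retinas spanned the RA-PBS range through animal 10. Cd93 was the only complement gene called with all 12 animals in this comparison (adjusted p = 0.0345 by edgeR).

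Cd93 was also the only complement gene tested to pass between O2-IC100 and O2-PBS without animal 10, where it fell by 1.01 on the log2 scale (SE 0.21, adjusted p = 0.0639 by edgeR). It stayed above RA-PBS by 1.03 (adjusted p = 0.0441 by edgeR). Itgam was 7.37 to 9.77 normalized CPM in O2-PBS and 5.11, 6.72 and 7.501 in O2-IC100 animals 9, 11 and 12. That difference was not called (adjusted p = 0.221 by edgeR). With 12 animals edgeR called 0 of the 38 in this comparison and 0% of all genes. Of the 38, 7 had an unadjusted p-value under 0.05 by edgeR, where 16.9% of all genes did. In the same comparison limma voom called 0 (0.0121% of all genes) and DESeq2 called 1 (0.461%).

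Of the lectin, alternative and terminal pathways only 3, 2 and 2 genes could be tested. Their log2 fold changes between O2-PBS and RA-PBS without animal 10 were -0.13 to 0.42, -0.29 to 0.09 and -0.06 to 0.36, and the smallest adjusted p was 0.116 by edgeR, for properdin (Cfp), which stabilizes the alternative pathway convertase. Hc, which encodes C5, had 0 to 0.337 normalized CPM and was not tested, and C9, Mbl1 and Vsig4 were at 0 in all 12 libraries. For a count of 0 the depth allows a share of up to 3 counts of the library. Among the most abundant of the 38 were Clu, Vtn, Calr, Lrp1, Sez6l2, Sez6 and Susd4. Clu, a chaperone that also blocks the terminal complex, was 490 ± 64.8 normalized CPM in RA-PBS and 447 ± 36.7 in O2-PBS (n = 4 each). Vtn, vitronectin, was 479 ± 69.4 and 506 ± 56.4. Calr was 409 ± 67.2 and 375 ± 15.9, and Lrp1 217 ± 82.9 and 198 ± 40.6. Sez6l2, Sez6 and Susd4 differed by -0.13, -0.08 and -0.22 on the log2 scale between these groups.

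**Figure D4:**
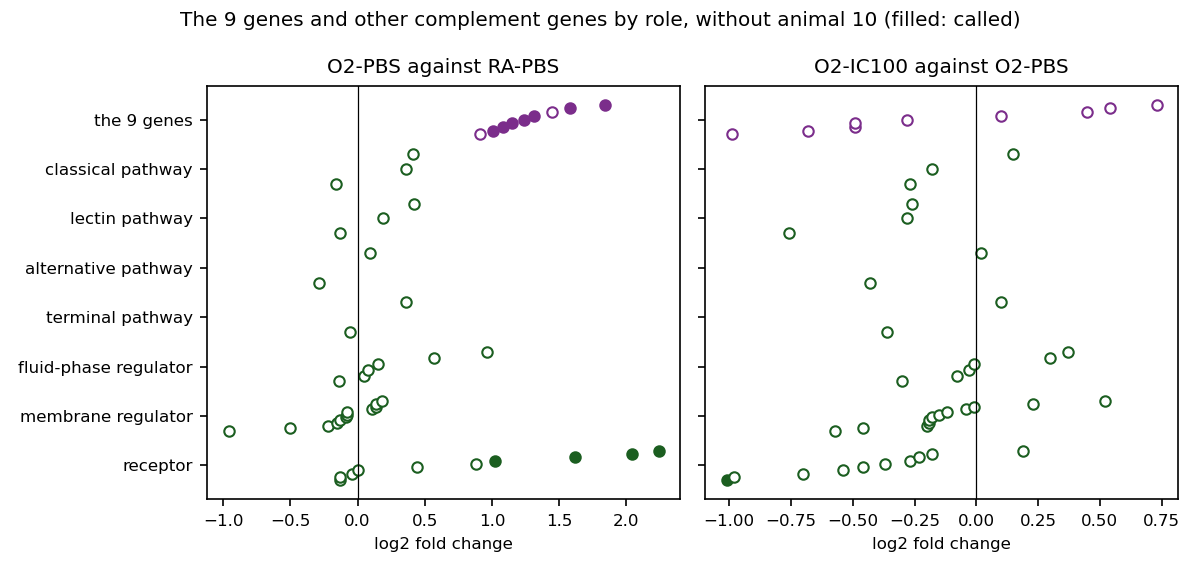
Log2 fold change (edgeR, without animal 10) of the 9 genes and of 38 other complement genes by role, for O2-PBS against RA-PBS on the left and O2-IC100 against O2-PBS on the right, on different scales. Filled points were called: 7 of the 9 and 4 receptors on the left, and Cd93 on the right.

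Cell type markers were followed beside these genes. For the marker calls here and below, the shares over all genes without animal 10 were as follows. In O2-PBS against RA-PBS 4.09% were called higher and 2.18% lower, and in O2-IC100 against O2-PBS 0.216% higher and 0.731% lower. All 16 microglial markers were tested, none was at 0 in all libraries, and 3 were called higher in O2-PBS than RA-PBS without animal 10 (median log2 fold change 0.36), with summed levels of 63.8 to 117 normalized CPM in RA-PBS and 107 to 131 in O2-PBS. In O2-IC100 without animal 10 the sum was 124 to 160, and 0 of 16 were called against O2-PBS (median 0.34). In animal 10 it was 646. Relative to the mean of these markers on the log2 scale, C1qa was 0.29 to 1.14 in RA-PBS and 1.26 to 1.61 in O2-PBS. It was 1.34 to 1.54 in all 4 O2-IC100 retinas. For C1qa, and likewise for C1qb, both hyperoxia groups thus lay above RA-PBS and overlapped each other. C1qc differed in both respects. It was 1.37 to 1.57 in all 4 O2-IC100 retinas, above all O2-PBS retinas, and its O2-PBS range overlapped RA-PBS. C4b on that scale was 2.87 to 3.56 in O2-PBS and 1.61 to 2.25 in all 4 O2-IC100 retinas, and Serping1 1.52 to 2.11 and -0.10 to 0.89, without overlap.

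Markers of reactive Müller glia and astrocytes also differed between the groups. Without animal 10, 8 of 12 were called higher in O2-PBS than RA-PBS (4.09% of all genes, median of the 12 log2 fold changes 1.82). In O2-IC100 4 of 12 were called lower than in O2-PBS (0.731% of all genes, median of the 12 -1.09). The summed level of the 12 markers was 346 to 800 normalized CPM in RA-PBS, 871 to 1340 in O2-PBS, 528 to 659 in O2-IC100 without animal 10 and 3840 in animal 10. Relative to the mean of these markers, C4b overlapped between O2-PBS and O2-IC100, at -0.53 to 0.11 and -0.19 to 0.77 with animal 10 included. Serping1 on that scale was -1.13 to -0.60 in RA-PBS and lower throughout O2-PBS, at -1.99 to -1.20. O2-IC100 animals 9, 11 and 12 were at -0.98, -0.96 and -1.01, above all O2-PBS retinas and within the RA-PBS range. Only animal 10, at -1.58, overlapped O2-PBS. Endothelial markers were called higher in 10 of 12 in O2-PBS (median 1.11), summing to 257 to 362 in RA-PBS and 513 to 602 in O2-PBS, and 3 of 12 were lower in O2-IC100. Markers of monocytes and border macrophages gave 3 higher and 1 lower of 9 tested in O2-PBS and 0 in O2-IC100, with sums of 18.9 to 27.3, 27.1 to 34.9 and 31.1 to 37.2, the last without animal 10, which had 242. Neutrophil markers summed to at most 1.02 normalized CPM, with Elane at 0 throughout. Pericyte markers were called higher in 5 of 6 in O2-PBS and lower in 2 of 6 in O2-IC100. Lens genes were lower in O2-PBS than RA-PBS in all 20 tested without animal 10 (median -8.93), and RA-PBS animals 2, 3 and 4 had lens shares of 1.24% to 4.44%. Pigment epithelium markers were lower in 5 of 8 (median -1.25), summing to 110 to 295 normalized CPM in RA-PBS and 50.1 to 128 in O2-PBS, and Müller glia markers in 2 of 8 (median -0.50). With a covariate for the lens level 8 of the 9 complement genes were called higher in that comparison without animal 10, as were 12.1% of all genes, and with one for the Y-linked level 7, as were 3.27% of all genes. The part of the cell types in the complement results was not tested.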

How the data were processed

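RNA was measured in 12 mouse retinas. Per the labels and the methods of the study, poly(A)-selected 150 bp paired-end reads were pseudoaligned by kallisto to the GRCm39 transcriptome of release 104 and summed per gene. The authors deposited expected counts, 42.0% of which are not whole, and they were rounded here. The 36131 rows carry 35374 symbols.

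Counts were analysed in R 4.3.3 with edgeR 4.0.16: TMM, filterByExpr (16489 genes with 12 animals, 16688 without animal 10), and a robust quasi-likelihood fit of the 3 groups with no covariate, with p-values adjusted by Benjamini-Hochberg across every gene tested. Called means past 1.5-fold with p below 0.05 and adjusted p below 0.1. Labels do not name litters or batches, so p-values measure the spread between these animals. Normalized CPM are TMM-scaled, and log2 CPM used a prior count of 2. Group values are mean ± SD and fold changes carry their SE. DESeq2 1.42.0, the tool the study names, limma 3.58.1 (voom), other scalings and filters, covariates for lens and Y-linked levels, fits of only the 2 groups compared, and each animal left out were alternatives. Leaving out a further animal besides animal 10, and the lens covariate and other scalings without animal 10, were added after the data were seen. On simulated counts for O2-PBS against RA-PBS with 11 libraries and 15149 genes, 98% of 200 genes changed 3-fold were recovered among 204 calls, 8 of them false.

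The 9 genes, the marker lists and the other complement genes were chosen with earlier results of these data known. The text names all 9 genes, every other complement gene called by edgeR with or without animal 10, the 8 with the highest mean CPM, and the 3 genes most like each member among those of at least 1 CPM; Hc, Cfp, C9, Mbl1 and Vsig4 were named after their values were seen. Some genes that these rules select are not reported here. Intervals are 95%. A count of 3 was taken as the floor, 1.23e-05% to 2.01e-05% of a library. Lengths and shared 31-base words came from GENCODE M21 transcripts (GRCm38), promoters from RefSeq.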

Additional observations from a re-analysis of the deposited data

Results flagged for a closer look

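In a group of 4 a retina was marked when its gap to the nearest other exceeded the share of the group's range that Dixon's test allows at 95%, which chance gives in about 1 of 20 groups. Of 27 groups (9 genes in 3 groups), 7 were marked. O2-IC100 animal 10 was far above the rest of its group for C1qa (46.1 normalized CPM, next 15.7), C1qb (48.6, next 18.6), C1qc (43.7, next 16.2), C4b (80.5, next 22.4), C3ar1 (10.9, next 3.29) and C5ar1 (5.93, next 1.15). Its lens share was 58.1% and its scaling factor 0.3244. In CPM without the scaling the C1q chains of this library were 14.9, 15.8 and 14.2, within or just below the range of animals 9, 11 and 12 (15.6 to 21.4), whereas C5ar1 was 1.92 against 0.506 to 1.28 and C3 was 0.655 against 2.35 to 4.45. O2-PBS animal 7 was above its group for C1qb (14.8 normalized CPM, next 11.0).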

How the results depend on the processing

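No paired analysis was possible because each animal has a number of its own and the groups share none. Results were recomputed under 38 alternatives, 13 of them added after the data were seen, except C5ar1, which was not tested at a mean of at least 1 CPM nor, for O2-IC100 against RA-PBS, in the fit of those groups alone. Leaving out animals 1 and 10, 7, 0 and 4 of the 9 genes were called in O2-PBS against RA-PBS, O2-IC100 against O2-PBS and O2-IC100 against RA-PBS, in that order, and 3, 1 and 1 of the other complement genes. That fit called 968, 282 and 315 of all 16640 genes. DESeq2 called 3, 0 and 6 of the 9 and 1, 1 and 3 others, and without animal 10 it called 9, 0 and 5 of the 9 and 4, 1 and 4 others. Of all genes it called 412, 112 and 280 of 24289, and without animal 10 1171, 394 and 562 of 25201. With only the groups compared, 7, 0 and 0 of the 9 and 3, 0 and 0 others were called. Of all genes, 867 of 16165, 0 of 16126 and 0 of 16004 were called there. In O2-PBS against RA-PBS, limma voom, upper quartile scaling, a mean of at least 1 CPM and the fit that was not robust called 1 of the 9. They called 194, 175, 133 and 144 of all genes, in that order. The Y-linked covariate gave 0, 4 and 4 of the 9 and 1, 10 and 1 others with 12 animals, in a fit that called 213, 3478 and 74 of all 16489 genes, and 7, 0 and 4 of the 9 and 3, 1 and 4 others without animal 10. Without animal 10 that covariate called 887, 61 and 433 of all 16688 genes. The lens covariate gave 8, 0 and 8 of the 9 and 7, 0 and 16 others, where it called 2147, 0 and 2704 of all genes, and without animal 10 8, 0 and 5 of the 9 and 12, 1 and 10 others. In the fit without animal 10 it called 3030, 428 and 1407 of all 16688 genes. Other scalings (RLE, upper quartile) without animal 10 gave 7, 0 and 5 of the 9 and 4, 1 and 1 others. Of all 16688 genes, RLE called 1049, 180 and 271 there, and upper quartile scaling 1043, 182 and 269. Over the fits that left out animals in turn, alone or besides animal 10, the 9 genes gave 0 to 8, 0 to 1 and 0 to 7 calls and the others 0 to 6, 0 to 1 and 0 to 8. The same fits called 32 to 1343, 0 to 432 and 0 to 925 of all genes. The single calls in O2-IC100 against O2-PBS were C1qc without RA-PBS animal 4 and C4b without RA-PBS animal 3, each besides animal 10. Those fits called 432 of 16603 and 274 of 16592 genes in that comparison. In O2-PBS against RA-PBS without animal 10, leaving out O2-PBS animal 7 as well gave 5 calls among the 9. That fit called 806 of all 16624 genes. Every alternative that gave a value kept the sign of each of the 9 genes in both comparisons with RA-PBS.

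In O2-IC100 against O2-PBS 4 genes changed sign under some alternative. Over the fits leaving out animals, the log2 fold change was -0.39 to 0.10 for C1ra, -1.18 to 0.13 for C4b, -0.05 to 1.12 for C3ar1 and -1.03 to 1.24 for C5ar1. C1ra was 0.04 with the Y-linked covariate. C5ar1 was -0.49 without animals 1 and 10, -0.51 with DESeq2 without animal 10, -0.10 with limma voom, -0.37 with the lens covariate, and without animal 10 -0.51 with RLE, -0.52 with upper quartile scaling and -0.43 with the lens covariate. The cause was not tested. The median log2 fold change of all genes stayed within 0.05 of 0 in each setting.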
